A study of Mus musculus with 24 samples.

Results

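The macrophage genes examined here are Marco, Mrc1, Cd68, Chil3, Ear2, Csf1r, C1qa, C1qb, Trem2 and Spp1, and every probe annotated to 1 of these symbols was followed across the 4 treatment groups. Probes were matched for 7 of the 10 genes, with 10 probes in all, out of 19057 genes named on the chip. No probe was matched to Cd68, Ear2 or Spp1 in the annotation used here, and these 3 genes were not analysed here. All 10 probes lay in the brighter 50% of probes that was tested.

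Macrophages of the lung are the alveolar macrophages, which live on the air side of the alveoli and take up surfactant, dust and microbes, and the interstitial and monocyte-derived macrophages of the tissue. In fibrotic lung, monocyte-derived macrophages are known to settle in the alveoli and in scar tissue. Marco and Mrc1 are scavenger and mannose receptors, Csf1r is the receptor of the growth factors on which macrophages depend, Trem2 is a lipid-sensing receptor, C1qa and C1qb are chains of complement C1q, and Chil3 (Ym1) is a chitinase-like protein secreted by mouse alveolar and alternatively activated macrophages.

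RNA came from distal lung tissue of 24 female C57BL/6 mice aged 12.5 weeks, with 1 array per mouse. EXT9 mice and EXT5 mice (6 each) received subcutaneous bleomycin (BLM, an anti-tumor drug that induces lung fibrosis), 50 IE per dose on 3 occasions a week for 2 weeks, together with EXT9 or EXT5 by mouth at 30 mg/kg every day; both compounds are code-named antagonists of a serotonin receptor. BLM mice (n = 6) received the same bleomycin with the oral vehicle, Tween80 at 2.5%, and saline mice (n = 6) received subcutaneous saline with that vehicle. No group received a compound without bleomycin, so compound and bleomycin cannot be told apart in a difference between EXT mice and saline mice. The sample labels give no Tween80 share for EXT mice. The arrays fell into 2 runs by the distribution of their values: the first run held 3 saline and 3 BLM arrays, and the second held the other 3 of each and all 12 EXT arrays. Over all arrays, a difference of EXT mice from saline or BLM mice therefore holds part of any difference between runs as well.

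The tissue label was checked with alveolar epithelial markers: all 8 type 2 genes and all 6 type 1 genes of the lists used were among the brighter 50% of probes. Saline replicate 6 stood apart from the other saline mice. Its mean T cell marker level (log2, relative to the mean of all mice) was 0.96, against at most 0.07 in the other saline mice, its B cell level was 0.63, against at most 0.05, and its smooth muscle level was -0.36, against 0.29 to 0.78. Its level over the 7 macrophage genes was 0.10, whereas the other saline mice reached at most -0.05. For the 7 macrophage genes, the counts of called probes, some differences and some correlations are also given without it. For the other gene lists, differences from saline mice are given only with saline replicate 6 included. Its macrophage values are among those under test, so leaving it out raises the differences from saline mice by construction. Results without it are therefore no separate support for those differences.

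The sequences before the transcription start of 4 of these genes are shown because Mrc1 and Chil3 varied together most closely among mice, Trem2 followed Mrc1 in part, and Marco had the lowest correlation of all pairs, with C1qa. Each is the 250 bases upstream of the RefSeq start in GRCm38.p6, 5′ to 3′ on the gene's strand. Capitals mark the letters GAGGAA or, on the other strand, TTCCTC, a form of the sequence recognised by PU.1, the transcription factor needed for macrophage development.
Mrc1 (chr2:14229164-14229413, plus strand): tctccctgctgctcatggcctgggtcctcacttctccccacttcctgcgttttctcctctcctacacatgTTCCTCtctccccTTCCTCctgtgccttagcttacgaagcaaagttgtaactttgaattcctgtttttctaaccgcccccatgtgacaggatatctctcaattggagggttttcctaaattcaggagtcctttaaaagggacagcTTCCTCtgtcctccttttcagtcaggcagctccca
Chil3 (chr3:106167565-106167814, minus strand): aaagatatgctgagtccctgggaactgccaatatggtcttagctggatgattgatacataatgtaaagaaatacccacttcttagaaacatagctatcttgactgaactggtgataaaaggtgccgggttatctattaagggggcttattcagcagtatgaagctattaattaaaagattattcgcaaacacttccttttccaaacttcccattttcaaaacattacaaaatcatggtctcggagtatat
Trem2 (chr17:48346151-48346400, plus strand): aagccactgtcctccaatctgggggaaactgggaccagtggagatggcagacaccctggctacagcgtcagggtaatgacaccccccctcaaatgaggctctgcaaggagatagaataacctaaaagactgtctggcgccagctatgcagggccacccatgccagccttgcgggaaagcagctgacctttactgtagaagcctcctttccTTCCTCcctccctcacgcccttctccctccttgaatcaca
Marco (chr1:120505025-120505274, minus strand): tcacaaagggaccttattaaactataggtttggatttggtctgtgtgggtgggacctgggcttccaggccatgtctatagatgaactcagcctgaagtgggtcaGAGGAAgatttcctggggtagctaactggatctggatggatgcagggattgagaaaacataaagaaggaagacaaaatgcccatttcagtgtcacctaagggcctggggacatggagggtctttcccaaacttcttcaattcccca

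The Mrc1 window held 3 matches, beginning at -180, -167 and -35 relative to the start, the Trem2 window held 1 match at -40, and the Marco window 1 match at -146. The Chil3 window held 0. The window of C1qb (chr4:136886201-136886450, minus strand), whose letters are not printed, held 1. Of 32841 RefSeq windows of the same length, 7638 (23.3%) held at least 1 match. A match describes the letters only. C1qa and Csf1r had no entry in the sequence table used.

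Chil3 and Mrc1 were higher in the lungs of EXT9 mice and of EXT5 mice than in saline mice, and Trem2 was higher in EXT5 mice. Chil3 was 1.80-fold to 1.85-fold higher in EXT9 mice and 1.92-fold to 2.14-fold higher in EXT5 mice on its 2 brighter probes, and Mrc1 was 1.68-fold and 1.89-fold higher. In BLM mice none of the 10 probes differed from saline mice past the threshold (limma, adjusted p under 0.05 over 22640 probes), and no probe differed past it between EXT mice and BLM mice or between EXT9 and EXT5 mice. These are levels in whole tissue, in which more cells of a type and more RNA per cell cannot be told apart. Both EXT comparisons use the same saline mice.

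**Figure D1:**
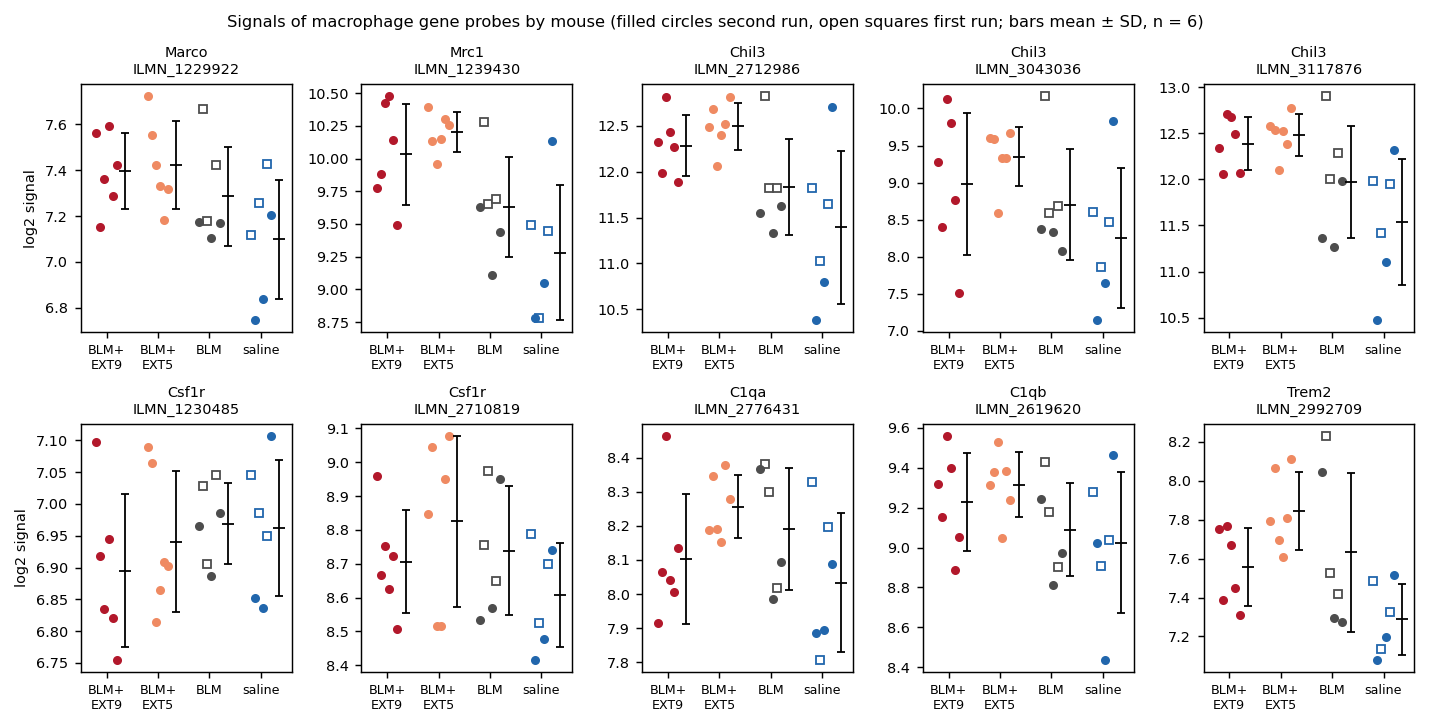
Log2 signal of the 10 macrophage gene probes in each of 24 mice, by group (EXT9, EXT5, BLM and saline, 6 mice each). Filled circles are second-run arrays, open squares first-run arrays, and bars the mean ± SD. For Mrc1 and for 2 of the Chil3 probes, the EXT mice lay above most saline mice, and the highest saline value of Mrc1 (10.13) was that of replicate 6.

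Among the surface receptors, Mrc1 (probe ILMN_1239430), the mannose receptor CD206, had log2 signals with a lowest, median and highest value of 9.49, 10.01 and 10.48 in EXT9 mice, 9.96, 10.20 and 10.39 in EXT5 mice, 9.11, 9.64 and 10.28 in BLM mice, and 8.78, 9.25 and 10.13 in saline mice. All 6 EXT5 mice lay above 5 of the 6 saline mice, and the exception was saline replicate 6, so the groups overlapped by that mouse alone. The means were 10.03 ± 0.39 in EXT9 mice, 10.20 ± 0.15 in EXT5 mice, 9.63 ± 0.38 in BLM mice and 9.28 ± 0.52 in saline mice (SD, n = 6 each). The log2 difference from saline mice was 0.75 ± 0.21 (SE; limma, adjusted p = 0.012) for EXT9 mice and 0.92 ± 0.21 (adjusted p = 0.0042) for EXT5 mice. For BLM mice it was 0.35, with a 95% interval of -0.08 to 0.78 (adjusted p = 0.74).

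Trem2 (ILMN_2992709) had 7.31, 7.56 and 7.77 in EXT9 mice, 7.61, 7.80 and 8.11 in EXT5 mice, 7.28, 7.47 and 8.23 in BLM mice, and 7.08, 7.26 and 7.51 in saline mice (lowest, median and highest log2 signal). Every EXT5 mouse was above every saline mouse, which was so for 1 of the 10 macrophage probes and for 1.16% of all probes tested. The 2 highest BLM mice, replicates 1 and 2, reached the level of the EXT5 mice, while the other 4 lay within 7.28 to 7.53. The log2 difference from saline mice was 0.56 ± 0.14 (SE; limma, adjusted p = 0.011) for EXT5 mice, a fold of 1.47, and 0.27 for EXT9 mice (95% interval -0.03 to 0.56, adjusted p = 0.18). For BLM mice it was 0.34, with an unadjusted p of 0.026 and an adjusted p of 0.51 in the same limma fit.

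Marco (ILMN_1229922), a scavenger receptor that binds unopsonised particles and bacteria, had 7.15, 7.39 and 7.59 in EXT9 mice, 7.18, 7.38 and 7.72 in EXT5 mice, 7.10, 7.18 and 7.67 in BLM mice, and 6.74, 7.16 and 7.43 in saline mice. The 4 ranges overlapped, and the 2 lowest values were those of saline replicates 2 and 4. The difference from saline mice was 0.30 for EXT9 mice (limma, adjusted p = 0.066) and 0.32 for EXT5 mice (adjusted p = 0.064) over all arrays. Marco was also lower in the second run than in the first by 0.31 in saline and BLM mice (limma, adjusted p = 0.020). Marco was not alone in this, since 8122 probes were called as different between the runs. With the run as a block the difference from saline mice was 0.45 for EXT9 mice (adjusted p = 0.0082) and 0.48 for EXT5 mice (0.0073), and in second-run arrays alone it was 0.47 (0.028) and 0.49 (0.030).

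Csf1r had 2 probes, and neither differed between any pair of groups past the threshold. On the brighter probe (ILMN_2710819) the log2 signal had a lowest, median and highest value of 8.51, 8.70 and 8.96 in EXT9 mice, 8.52, 8.90 and 9.08 in EXT5 mice, 8.53, 8.70 and 8.98 in BLM mice, and 8.41, 8.61 and 8.79 in saline mice, and all 4 ranges overlapped. The differences from saline mice were 0.10 in EXT9 mice, 0.22 in EXT5 mice and 0.13 in BLM mice. The dimmer probe (ILMN_1230485) lay between 6.75 and 7.11 in all 24 mice, close to the limit of 6.71 for testing, with differences of -0.07, -0.02 and 0.01.

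Chil3, the secreted chitinase-like protein, had 3 probes. ILMN_3117876 had 12.05, 12.42 and 12.70 in EXT9 mice, 12.10, 12.53 and 12.78 in EXT5 mice, 11.27, 11.99 and 12.91 in BLM mice, and 10.47, 11.68 and 12.32 in saline mice. ILMN_2712986 had 11.89, 12.29 and 12.82 in EXT9 mice, 12.06, 12.51 and 12.81 in EXT5 mice, 11.34, 11.72 and 12.83 in BLM mice, and 10.38, 11.33 and 12.70 in saline mice. On both probes each EXT mouse lay above most BLM mice and most saline mice, with every mouse kept. The highest BLM mouse was replicate 2 and the highest saline mouse was replicate 6. The third probe, ILMN_3043036, was dimmer and spread more widely, with 7.51, 9.02 and 10.13 in EXT9 mice, 8.59, 9.46 and 9.67 in EXT5 mice, 8.08, 8.48 and 10.17 in BLM mice, and 7.14, 8.17 and 9.83 in saline mice.

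For ILMN_3117876 the log2 difference from saline mice was 0.85 ± 0.27 (SE; limma, adjusted p = 0.025) in EXT9 mice and 0.94 ± 0.27 (adjusted p = 0.018) in EXT5 mice. For ILMN_2712986 it was 0.89 ± 0.29 (adjusted p = 0.030) and 1.10 ± 0.29 (adjusted p = 0.012). The third Chil3 probe had 0.72 in EXT9 mice (95% interval -0.17 to 1.61, adjusted p = 0.22) and 1.09 in EXT5 mice (0.20 to 1.98, adjusted p = 0.090), so the 3 probes pointed the same way and this 1 did not pass the test. In BLM mice the 3 differences from saline mice were 0.43, 0.44 and 0.45, with adjusted p of 0.76, 0.79 and 0.89. Chil4, a near-identical paralog whose RNA could bind to the same probes, had 1.34 in EXT5 mice (adjusted p = 0.010) and 0.88 in EXT9 mice (adjusted p = 0.066). Chil3 ILMN_3117876, like Marco, was lower in the second run than in the first, by 0.67 in saline and BLM mice (limma, adjusted p = 0.026).

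C1qa and C1qb, which code for chains of complement C1q, differed less. C1qa (ILMN_2776431) had 7.92, 8.05 and 8.46 in EXT9 mice, 8.15, 8.24 and 8.38 in EXT5 mice, 7.99, 8.20 and 8.38 in BLM mice, and 7.81, 7.99 and 8.33 in saline mice. C1qb (ILMN_2619620) had 8.89, 9.24 and 9.56 in EXT9 mice, 9.05, 9.35 and 9.53 in EXT5 mice, 8.81, 9.08 and 9.43 in BLM mice, and 8.43, 9.03 and 9.46 in saline mice. The ranges of all groups overlapped for both genes. The difference from saline mice was 0.07 for C1qa and 0.20 for C1qb in EXT9 mice, and 0.22 for C1qa (limma, adjusted p = 0.12) and 0.29 for C1qb (adjusted p = 0.17) in EXT5 mice.

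In counts, 3 of the 10 probes were higher in EXT9 mice than in saline mice, where 5.49% of all probes tested were called higher and 17.6% lower, and 4 of 10 were higher in EXT5 mice, where 3.42% were called higher and 11.1% lower. None was called lower in either. The balance of calls moved with the scaling: for EXT9 mice 1244 of 5229 calls were higher as deposited, 2060 of 4926 after median centring and 2332 of 4918 after joint quantile normalization, and for EXT5 mice 775 of 3298, 1297 of 3222 and 1551 of 3326. The macrophage counts were 4 in EXT9 mice and 5 in EXT5 mice after median centring, with Marco added in both, and 4 and 6 after joint quantile normalization, with Marco added in both and C1qa in EXT5 mice. In BLM mice against saline mice 0 of 10 were called and 0.137% of all probes were, with 1 of 10 at an unadjusted p under 0.05 (7.96% of all probes).

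**Figure D2:**
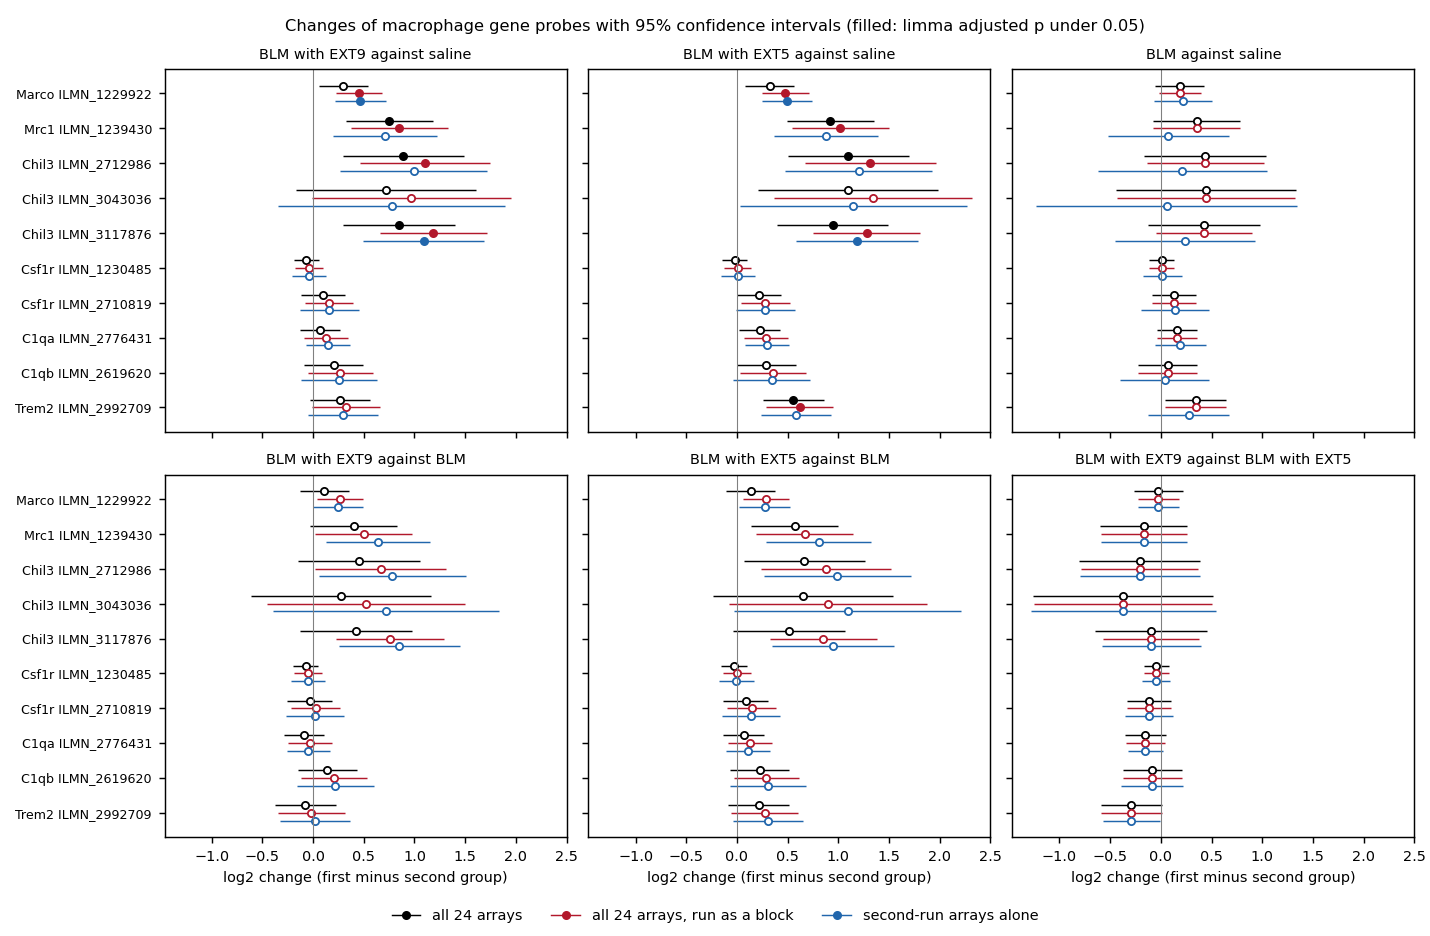
Log2 difference of each macrophage probe in 6 comparisons, with 95% intervals, from limma over all 24 arrays (black), with run as a block (red) and in second-run arrays alone (blue); filled points have an adjusted p under 0.05. In the comparisons with saline mice, the filled points are those of Mrc1, Chil3, Marco and Trem2, and in the comparison between the compounds none is filled.

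Against BLM mice, the differences were smaller and none passed the threshold, with 0 of 10 probes called in EXT9 mice, where 10.1% of all probes were called, and 0 of 10 in EXT5 mice, where 7.28% were. At an unadjusted p under 0.05 there were 0 of 10 for EXT9 mice (29% of all probes) and 2 of 10 for EXT5 mice (24%). Mrc1 was at 0.40 in EXT9 mice (limma, adjusted p = 0.20) and at 0.57 in EXT5 mice (95% interval 0.14 to 1.00, adjusted p = 0.097). Chil3 ILMN_2712986 was at 0.45 in EXT9 mice (adjusted p = 0.30) and at 0.66 in EXT5 mice (adjusted p = 0.16). Trem2 was at -0.08 and 0.21. Among all probes, 385 of 2276 calls were higher in EXT9 mice than in BLM mice as deposited, 652 of 1653 after median centring and 780 of 1598 after joint quantile normalization, and for EXT5 mice the counts were 228 of 1649, 407 of 1245 and 532 of 1254.

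Within the second run, where EXT mice can be set against 3 BLM mice measured with them, every EXT5 mouse was above every BLM mouse on 5 of the 10 probes, those of Marco, Mrc1 and Chil3 (5.76% of all probes did so), and every EXT9 mouse was above them on 2, both of Chil3 (5% of all probes). The differences there were 0.64 for Mrc1 in EXT9 mice (limma, adjusted p = 0.17) and 0.81 in EXT5 mice (adjusted p = 0.11), and 0.85 and 0.95 for Chil3 ILMN_3117876 (adjusted p = 0.12 and 0.10). None passed the threshold. The second-run BLM mice held the lower part of the BLM range: for Chil3 ILMN_2712986 they lay between 11.34 and 11.62, while the 12.83 of BLM replicate 2 was a first-run value.

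Between the compounds, given at the same dose and for the same time, all 10 probes were lower in EXT9 mice than in EXT5 mice by estimate (47.8% of all probes were above 0), and 0 of 10 passed the threshold (0.146% of all probes did). The 10 probes are not independent of each other. The difference was -0.29 for Trem2, with a 95% interval of -0.59 to 0.01 (limma, adjusted p = 0.56), -0.17 for Mrc1 (-0.60 to 0.26), -0.21 for Chil3 ILMN_2712986 (-0.81 to 0.39) and -0.03 for Marco (-0.27 to 0.21). C1qa was at -0.15 (-0.35 to 0.05). In second-run arrays alone, which held all EXT mice, the Trem2 interval was -0.57 to -0.01 (limma, unadjusted p = 0.045, adjusted p = 0.42). The intervals over all arrays leave room for a difference in either direction, so the data do not show that the compounds act alike on these genes.

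The run of an array bore on the comparisons with saline and BLM mice, since no EXT array lay in the first run. With the run as a block, 4 of 10 probes were higher in EXT9 mice than in saline mice (7.78% of all probes) and 5 of 10 in EXT5 mice (5.32%), with Marco added to the earlier calls in both. Within second-run arrays alone, 2 probes, Marco and Chil3 ILMN_3117876, were higher in each (3.36% and 2.28% of all probes), while Mrc1 had 0.71 in EXT9 mice (limma, adjusted p = 0.087) and 0.88 in EXT5 mice (0.053), Chil3 ILMN_2712986 had 0.99 (0.089) and 1.20 (0.058), and Trem2 had 0.58 in EXT5 mice (0.054). For BLM against saline mice the Mrc1 difference was 0.07 in the second run and 0.63 in the first (limma, unadjusted p = 0.019, adjusted p = 0.30). The second-run value rested on saline replicate 6, and without that mouse, which left 2 saline mice, it was 0.48. A test of the change of effect between runs gave an unadjusted p of 0.25 for Mrc1 and called none of the 10 probes.

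Leaving out saline replicate 6 alone moved the counts little, to 3 probes higher in EXT9 mice and 5 in EXT5 mice than in saline mice, and 0 in BLM mice. With both that mouse left out and the run as a block, a combination chosen after seeing the data, 6 of 10 probes were higher in EXT9 mice than in saline mice (9.26% of all probes) and 7 of 10 in EXT5 mice (7.39%). That mouse had the highest level of the saline mice over the macrophage genes, so its removal by itself raises the differences from saline mice. The EXT9 difference from saline mice was 1.17 for Mrc1 (limma, adjusted p = 0.00017) and the EXT5 difference was 1.34 (3.9e-05) for Mrc1 and 1.65 (7.6e-06) for Chil3 ILMN_3117876. C1qb then passed the threshold in both, at 0.44 (0.043) in EXT9 mice and 0.52 (0.018) in EXT5 mice. Under the same setting 2 of 10 probes passed it for BLM against saline mice (1.37% of all probes were called higher), both of Chil3, at 0.77 (0.030) for ILMN_2712986 and 0.68 (0.042) for ILMN_3117876. Mrc1 and the same 2 probes of Chil3 were also higher in EXT mice than in BLM mice, 3 of 10 in each comparison (4.42% of all probes for EXT9 mice and 4.26% for EXT5 mice), with Mrc1 at 0.60 (0.036) in EXT9 mice and 0.77 (0.0080) in EXT5 mice. Saline replicate 6 is in neither group of these comparisons, and leaving it out changed only the shared spread and the run term. For Mrc1 in EXT5 against BLM mice, the difference with run as a block moved from 0.67 to 0.77. In second-run arrays alone that difference was 0.81 with and without the mouse, while its SE fell from 0.24 to 0.18 and its limma adjusted p from 0.11 to 0.016.

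Of genes beyond the 10, those typical of alveolar macrophages gave the most calls against saline mice among the 9 macrophage lists examined. The lists were written with earlier results of these data known, so their counts and this ranking are descriptive and no separate support. Of 13 alveolar macrophage genes tested, 5 were higher in EXT9 mice (5.49% of all probes) and 6 in EXT5 mice (3.42% of all probes), with none lower, and their median difference was 0.38 and 0.53, against -0.06 and -0.05 over all probes. Krt79 had 0.70 (limma, adjusted p = 0.0023) in EXT9 mice and 0.65 (0.0049) in EXT5 mice. Abcg1, a cholesterol exporter of alveolar macrophages, had 0.47 (0.030) and 0.67 (0.0045), Cd9, a tetraspanin, 0.33 (0.026) and 0.40 (0.011), and Cidec, a lipid droplet protein, 0.32 (0.10) and 0.57 (0.0078). With run as a block the counts were 6 in EXT9 mice and 8 in EXT5 mice (7.78% and 5.32% of all probes), and in second-run arrays alone 1 and 2 (3.36% and 2.28%). In BLM mice 0 of the 13 passed the test (0.137% of all probes did), with a median of 0.22.

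Genes shared by macrophages and other myeloid cells gave, of 16 tested, 3 higher and 1 lower in EXT9 mice and 4 higher in EXT5 mice, beside 5.49% of all probes higher and 17.6% lower in EXT9 mice and 3.42% higher and 11.1% lower in EXT5 mice, shares that also stand beside the counts of the lists that follow. Lyz2, lysozyme, which type 2 epithelial cells of the lung express too, had 0.95 (limma, adjusted p = 0.0029) in EXT9 mice and 0.91 (0.0049) in EXT5 mice. It was the gene of this list that also passed against BLM mice, at 0.73 (limma, adjusted p = 0.032) and 0.69 (0.048). Against BLM mice, 10.1% of all probes were called in EXT9 mice and 7.28% in EXT5 mice. Fcgr4, an activating receptor for IgG, had 0.78 (0.0017) and 0.72 (0.0039). Irf8, a transcription factor of monocytes and dendritic cells, was lower in EXT9 mice at -0.50 (0.0058), with -0.32 (0.082) in EXT5 mice. Laptm5, a lysosomal protein of blood cells, had 0.33 (0.027) and 0.27 (0.089).

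Genes reported with Trem2 in macrophages of lipid-rich and fibrotic tissue held calls in both directions. Of 14 tested, 3 were higher and 1 lower in EXT9 mice, and 4 higher and 1 lower in EXT5 mice, with medians of -0.02 and 0.00; 1 of 14 lower is below the 17.6% of all probes in EXT9 mice and the 11.1% in EXT5 mice. Lgals3, galectin-3, had 0.57 (limma, adjusted p = 0.0027) in EXT9 mice and 0.53 (0.0057) in EXT5 mice, and Fabp5, a fatty acid binding protein, 0.54 (0.0036) and 0.42 (0.021). Cd63, a lysosomal membrane protein, was lower in EXT9 mice at -0.27 (0.0013), and Timp2, a protease inhibitor, in EXT5 mice at -0.27 (0.022).

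Genes of monocyte-derived and interstitial macrophages gave few calls, and their difference from the alveolar list was not tested. Of 15 tested, 0 were higher and 3 lower in EXT9 mice, with Cx3cr1, the fractalkine receptor, at -0.59 (limma, adjusted p = 0.0083), Aif1, an actin-binding protein, at -0.35 (0.012) and Ccr2, the receptor that brings monocytes from blood, at -0.14 (0.042), a count of lower calls close to the 17.6% of all probes. In EXT5 mice 1 was higher, Ms4a7 at 0.41 (0.049), and 1 lower, Aif1 at -0.41 (0.0052). Of 8 monocyte genes, 2 were lower in EXT9 mice (Hp, haptoglobin, at -0.39, 0.043, and Ifitm6 at -0.41, 0.036), and in EXT5 mice Hp was lower at -0.54 (0.0095) and Chil4 higher. Chil4 is the near-identical paralog of Chil3 described above, so its call may not be separate from those of Chil3. Hp was also lower than in BLM mice, at -0.58 (limma, adjusted p = 0.014) in EXT9 mice and -0.73 (0.0062) in EXT5 mice. Of all probes, 10.1% and 7.28% were called in these 2 comparisons.

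The other macrophage lists gave few calls. Of 10 alternative activation genes, 1 was lower in EXT9 mice, Clec10a, a lectin, at -0.25 (limma, adjusted p = 0.015), and 0 were called in EXT5 mice. Of 8 inflammatory activation genes and of 6 classical complement genes 0 were called in either. Of 11 growth factors and receptors 3 were higher in EXT9 mice and 2 in EXT5 mice, among them Tgfb1 at 0.35 (0.0086) and 0.36 (0.0088) and Il3ra at 0.17 (0.019) and 0.25 (0.0021), while Flt1, which is also an endothelial receptor, had 0.57 (0.0094) in EXT9 mice and 0.26 (0.25) in EXT5 mice. In BLM mice against saline mice 0 genes of any of these 9 lists were called, where 0.137% of all probes were.

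**Figure D3:**
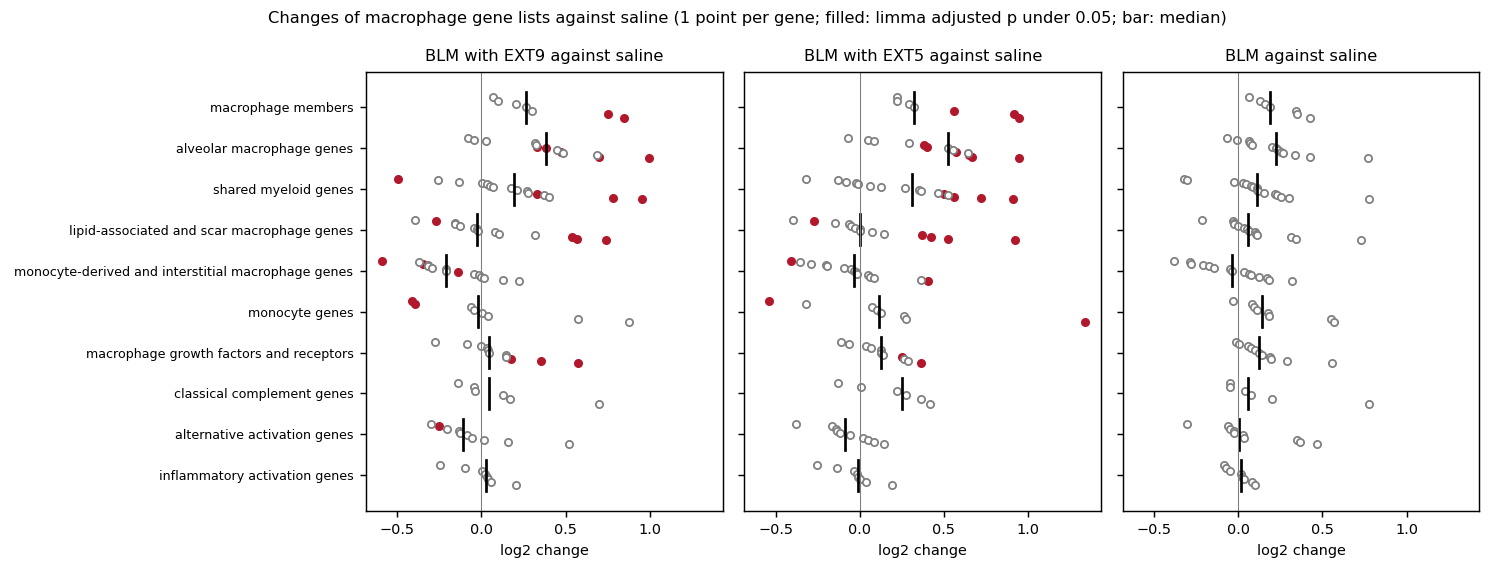
Log2 difference from saline mice of the tested genes of 10 macrophage lists, in EXT9, EXT5 and BLM mice. Each point is 1 gene (filled where the adjusted p was under 0.05) and each bar the median of the list. The alveolar macrophage medians of 0.38 in EXT9 mice and 0.53 in EXT5 mice lie above 0.22 in BLM mice. No point is filled in the BLM panel, a comparison in which 0.137% of all probes were called.

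Some markers of other cell types were also called against saline mice, where 5.49% of all probes were called higher and 17.6% lower in EXT9 mice, and 3.42% higher and 11.1% lower in EXT5 mice. Of 8 alveolar type 2 genes, 3 were higher in EXT9 mice and 4 in EXT5 mice than in saline mice, and their mean level ran from 0.01 to 0.26 in EXT9 mice, 0.09 to 0.45 in EXT5 mice, -0.42 to 0.12 in BLM mice and -0.74 to 0.18 in saline mice. Of 6 type 1 genes, 6 were higher in EXT9 mice and 4 in EXT5 mice. Of 6 smooth muscle genes, 6 were lower in each, and their level ran from -0.49 to -0.15 in EXT9 mice, -0.75 to -0.06 in EXT5 mice, 0.23 to 0.49 in BLM mice and -0.36 to 0.78 in saline mice. Of 3 red cell genes, 3 were higher in EXT9 mice and 2 in EXT5 mice. Of 4 T cell, 4 B cell and 7 neutrophil genes, 0 were called in either, and of 8 dendritic cell genes 3 were lower in EXT9 mice and 1 in EXT5 mice, the count in EXT5 mice being near the share of all probes. The part of these cell types in the macrophage results was not tested.

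Within a treatment group, mice that were high in 1 macrophage gene tended to be high in others. After each group and run mean was removed, all 21 pairs of the 7 genes correlated above 0 over the 24 mice, with a median r of 0.46, and 6 passed a permutation test within group and run with Benjamini-Hochberg adjustment over the 21 pairs (two-sided, 100000 resamples). Mrc1 and Chil3 correlated most, at r = 0.87 (p = 4e-05, adjusted p = 0.00084) and Spearman's rho = 0.82 (adjusted p = 0.0055). Without the 2 mice farthest from the median the r of Mrc1 and Chil3 was 0.78, in second-run arrays alone 0.85 and without saline replicate 6 0.78. Mrc1 and Trem2 had r = 0.64 (adjusted p = 0.013; rho = 0.65, adjusted p = 0.013), and C1qb and Trem2 r = 0.63 (0.014; rho = 0.66, 0.017), the r being 0.62 and 0.69 without the 2 farthest mice. In second-run arrays alone 1 pair, Mrc1 and Chil3, passed the test. Without saline replicate 6, Marco with C1qa was at -0.10 and Marco with Csf1r at -0.04, and Chil3 with C1qb fell from 0.43 to 0.11. Pairs of other genes on the array were not measured, so nothing here sets the macrophage pairs apart from them.

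The other pairs that passed joined C1qa with Trem2 (r = 0.63), C1qb (0.62) and Mrc1 (0.59). At the other end stood Marco with C1qa (r = 0.01, adjusted p = 0.98), Marco with Csf1r (r = 0.09, adjusted p = 0.74) and Csf1r with C1qb (r = 0.27, adjusted p = 0.25). The arrays within each of the 2 runs share a normalization, whose part in the correlations was not tested. Mrc1, whose window held 3 GAGGAA matches, and Chil3, whose window held 0, were the pair that varied together most, and nothing about a factor follows from either count.

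**Figure D4:**
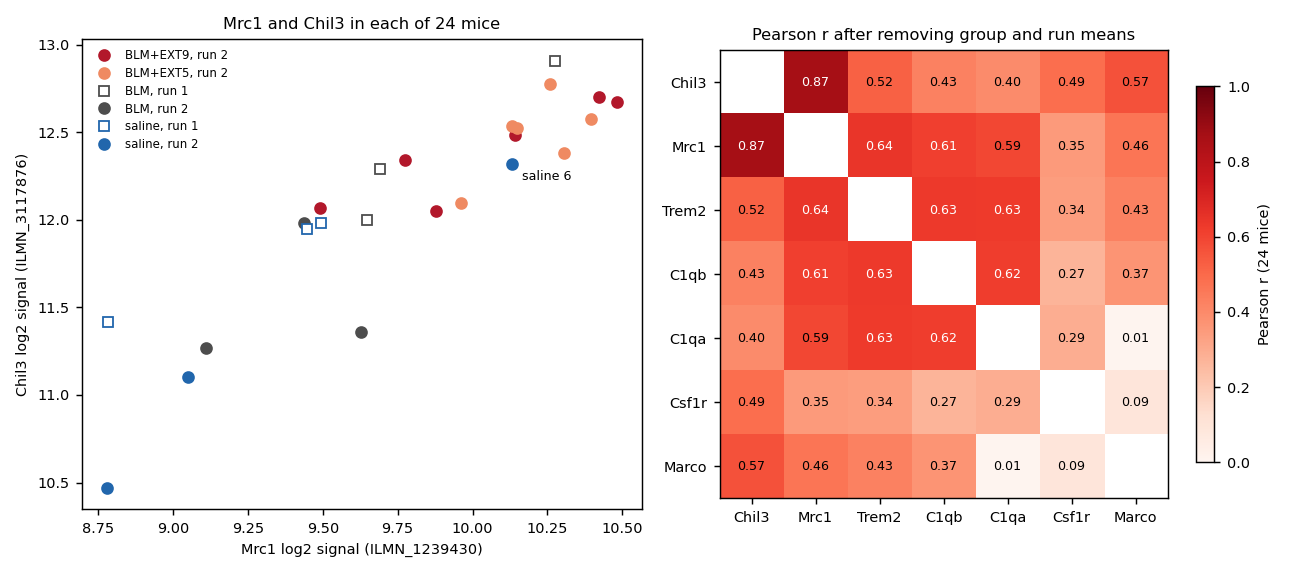
Left, log2 signal of Mrc1 (ILMN_1239430) against Chil3 (ILMN_3117876) in 24 mice, coloured by group, with saline replicate 6 marked. Right, Pearson r of each pair of the 7 macrophage genes after group and run means were removed, from 0.01 for Marco and C1qa to 0.87 for Mrc1 and Chil3.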

How the data were processed

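Per the labels, total RNA of distal lung tissue from 24 mice was hybridised to 1 Illumina MouseWG-6 v2 array each. The authors deposited linear signal intensity for 45281 probes, quantile normalized, and no depth applies to arrays, whose number limits the precision. Values were log2-transformed with no offset (pseudocount 0). The background correction is not given in the sources used here. A second deposited table, not normalized, holds 48 columns that no label ties to a sample, and none was used. The 2 runs were inferred from the 2 value distributions (median signal 110.2 to 110.3 and 103.3), and their median difference was 0.10 on the log2 scale. Symbols came from the platform annotation (34885 probes with 1 symbol, 18 with several, 10378 with none).

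The 50% of probes with the higher mean were tested (22640, above 6.71) with limma 3.58.1 in R 4.3.3, over all 24 arrays with no covariate and Benjamini-Hochberg adjustment, and a probe was called at an adjusted p under 0.05. Genes with several probes entered lists and correlations by their brightest probe. Correlations were computed in Python with NumPy and SciPy. Of 203 probes whose values differed between runs by more than 1.5 beyond the median difference, 0 were macrophage probes of the 10 genes.

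Alternatives were run as a block, each run alone, median centring, joint quantile normalization, no filter, an offset of 16, the 2 compared groups alone, trend and robust settings, array weights, replicate block, without the 203 probes and leaving out each mouse. Leaving out saline replicate 6 together with a run setting was added after seeing the data. Every probe of the 10 genes is named. From each other macrophage list, up to 4 genes called in at least 1 comparison were named by smallest adjusted p. For lists of other cell types, counts and levels were given without gene names, and the endothelial and eosinophil lists were not described. Of the gene pairs, the 3 highest and 3 lowest were named. The remaining pairs that passed were named after their values were seen. Members and lists were chosen with earlier results of these data known. Mice are labelled as biological replicates.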

Additional observations from a re-analysis of the deposited data

Results flagged for a closer look

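Of 40 sets of 1 probe and 1 group of 6 mice, 3 held a mouse far from the others, by a gap to its nearest neighbour, as a share of the group's range, above Dixon's 95% critical value, which chance gives in about 1 in 20 groups. All 3 were on Chil3. BLM replicate 2 had a log2 signal of 12.83 on ILMN_2712986, with the next mouse at 11.82, and 10.17 on ILMN_3043036, with the next at 8.69, so the same first-run mouse stood apart on both. EXT5 replicate 3 had 8.59 on ILMN_3043036, below the next mouse at 9.33.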

How the results depend on the processing

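The signs of Mrc1 and Chil3 against saline mice held in each setting run, and the count of called probes moved as follows. In EXT9 against saline mice it was 3, with 1 to 4 when 1 mouse was left out, and 6 with run as a block and 5 in second-run arrays alone, both without saline replicate 6. Mrc1 was called in each of the 12 leave-one-out fits, whereas Chil3 ILMN_3117876 was lost without saline replicate 2 (0.63), EXT9 replicate 3 or EXT9 replicate 4 (0.79 each), and Chil3 ILMN_2712986 in 5 of the 12, without saline replicate 2 (0.69), 3 (0.82) or 4 (0.77) or EXT9 replicate 3 (0.78) or 4 (0.86), with limma adjusted p up to 0.069. ILMN_2712986 was also lost with the 2 compared groups alone (adjusted p = 0.077) and in second-run arrays alone. In EXT5 against saline mice it was 4, with 4 to 5 when 1 mouse was left out, 2 in second-run arrays alone, and 7 and 7 in the 2 settings without saline replicate 6. In EXT5 against BLM mice it was 0, with 0 to 1 when 1 mouse was left out (Mrc1, 0.70, without BLM replicate 2), 1 with the 2 compared groups alone, 2 with array weights and 3 in each setting without saline replicate 6. In EXT9 against BLM mice it was 0, and 3 in each setting without saline replicate 6, a mouse of neither the EXT nor the BLM groups. In BLM against saline mice it was 0, and 2 with run as a block without saline replicate 6. Between the compounds it was 0 in each setting. Of the gene pairs, 6 passed, and 1 in second-run arrays alone. The causes were not tested; the second run alone has fewer arrays.

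Over all probes the counts of calls moved more. With the settings other than leaving out 1 mouse by itself, they were 5229 for EXT9 against saline mice (1441 to 9661), 3298 for EXT5 against saline mice (900 to 8773), 2276 for EXT9 against BLM mice (529 to 2805), 1649 for EXT5 against BLM mice (286 to 2597), 31 for BLM against saline mice (0 to 639) and 33 between the compounds (1 to 138). With 1 mouse left out the ranges were 3639 to 6503, 2339 to 4690, 1149 to 2893, 694 to 2021, 15 to 201 and 1 to 15, in the same order. Of 36 pairs of same-numbered mice, 11 correlated above 0.1 in their deviations from the group means (-0.64 to 0.75), among them BLM and saline replicates 3, 4, 5 and 6 (0.48 to 0.75), which lay in the same run by number, whereas replicates 1 and 2 (-0.64 and -0.52) lay in different runs. With run means removed too, 9 of 36 were above 0.1 (-0.41 to 0.37), so the numbers were not taken to pair mice, and with the replicate block the counts of called macrophage probes stayed at 3 in EXT9 and 4 in EXT5 against saline mice and 0 elsewhere.

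The differences and correlations whose sign turned under a setting were not called there or over all arrays. For Csf1r ILMN_1230485, BLM against saline was -0.00075 in first-run arrays alone and -0.0082 with array weights; EXT5 against BLM was 0.0186 after median centring, 0.0226 after joint quantile normalization and 0.0181 with run as a block without saline replicate 6. Its EXT5 difference from saline was 0.0055 with run as a block, 0.0092 in second-run arrays alone, 0.0253 after median centring, 0.0294 after joint quantile normalization, and 0.0629 and 0.0971 in the 2 settings without saline replicate 6, and its EXT9 difference from saline was 0.0172 and 0.0514 in those 2. For Csf1r ILMN_2710819, EXT9 against BLM was 0.0259 with run as a block, 0.0215 in second-run arrays alone, with or without saline replicate 6, 0.0143 after median centring, 0.0428 after joint quantile normalization and 0.0473 with run as a block without saline replicate 6. For Trem2, EXT9 against BLM was 0.0171 in second-run arrays alone, with or without saline replicate 6, and 0.0153 with run as a block without it. For C1qa, EXT9 against saline was -0.0079 with array weights. The correlation of Marco with Csf1r was -0.0376 without saline replicate 6 and -0.0122 without the 2 farthest mice, and that of Marco with C1qa was -0.0018 in second-run arrays alone, -0.0987 without saline replicate 6 and -0.0275 without the 2 farthest. With 1 mouse left out, differences that turned ranged from -0.0187 to 0.0356 (Csf1r ILMN_1230485, BLM against saline), -0.0521 to 0.15 (C1qb, BLM against saline), -0.15 to 0.0437 (Trem2, EXT9 against BLM), -0.0837 to 0.0144 (Csf1r ILMN_2710819, EXT9 against BLM), -0.0741 to 0.0342 (Marco, EXT9 against EXT5), -0.0514 to 0.0072 (Csf1r ILMN_1230485, EXT5 against saline) and -0.0012 to 0.13 (C1qa, EXT9 against saline). The cause was not tested.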
